A study of Mus musculus with 96 samples.

Results

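Flt3 was at 10 TPM or more in 17 of 51 c-Kit-selected leukemic spleen cells that carried little class II and S100a8 transcript, and below 10 TPM in the other 34. These 51 cells, of 96 single-cell libraries in all, were those with less than 1000 TPM of H2-Aa and less than 1000 TPM of S100a8. H2-Aa encodes a chain of the class II molecule of antigen-presenting cells, and S100a8 is a gene abundant in neutrophils and monocytes. TPM is a transcript abundance per length, scaled to a fixed total in each cell. The 17 cells are called Flt3-expressing and the 34 cells Flt3-low. Mouse 1 gave 11 Flt3-expressing and 22 Flt3-low cells, and mouse 2 gave 6 Flt3-expressing and 12 Flt3-low cells.

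The study asks how losing the DNA methyltransferase Dnmt3a alters expression in leukemia whose Flt3 carries an internal tandem duplication. Both mice were moribund with acute myeloid leukemia and had the same genotype, Flt3ITD/ITD;Dnmt3afl/- with MxCre, an interferon-inducible Cre that is active in blood cells and also in other tissues. The 48 cells of each mouse came from spleen, were enriched with beads for c-Kit (CD117, the stem cell factor receptor), and were captured and sequenced one by one. Both sides of the comparison come from the same mice, so no value here compares genotypes, and whether the floxed Dnmt3a allele was excised was not measured cell by cell. Spleen cells of a control genotype were not analysed here. The columns of each mouse carry a prefix of their own that no label explains, so the mouse and what the prefix marks cannot be told apart. Each mouse is 1 animal and its cells are not replicates, so the differences below are descriptions with no test, and what held in both mice is reported as such.

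Flt3 is a class III receptor tyrosine kinase. Its ligand pairs receptor chains, which signal through phosphoinositide 3-kinase, the Ras and MAP kinase cascade and, for receptors with an internal tandem duplication, strongly through Stat5. In mouse blood formation Flt3 appears as multipotent progenitors lose long-term stem cell activity, is kept in lymphoid-primed and early granulocyte-monocyte progenitors and in dendritic cells, and is low in megakaryocyte, erythroid, mast cell and basophil lineages. On the GRCm38 annotation the gene lies on the minus strand at chr5:147330741-147400489.

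The cells were chosen by their measured Flt3, H2-Aa and S100a8 levels, so these are given as a description. The lowest, median and highest Flt3 levels were 19.2, 77.02 and 296 TPM in the Flt3-expressing cells of mouse 1 and 0, 0 and 1.28 TPM in its Flt3-low cells, of which 15 of 22 were at 0. In mouse 2 they were 10.8, 89.5 and 245 TPM in Flt3-expressing cells and 0, 0.25 and 3.93 TPM in Flt3-low cells, of which 4 of 12 were at 0. The cell just inside the threshold had 10.8 TPM and the cell just outside it 3.93 TPM, so no cell lay between these values. The other limits also fell in gaps. The highest H2-Aa among the 51 cells was 98.3 TPM and the lowest among the cells left out for it was 6732 TPM, while for S100a8 these values were 59.6 and 1251 TPM. The authors' RPKM values, a second measure, mostly did not show Flt3 in the Flt3-expressing cells. There Flt3 was above its lowest value by a factor of 1.5 in 2 of 11 such cells of mouse 1 and 1 of 6 of mouse 2. It was so in 0 of 22 and 0 of 12 Flt3-low cells, so the split rests on the TPM values alone. Flt3-expressing cells made up 33.3% of the class II-low, S100a8-low cells of each mouse (11 of 33 and 6 of 18), with exact 95% intervals for the counting of cells of 17.96 to 51.8% in mouse 1 and 13.3 to 59.01% in mouse 2. Among the class II-high cells, which the rule left out, Flt3 reached 10 TPM in 9 of 14 cells of mouse 1 and 14 of 20 cells of mouse 2. It did so in 0 of 10 S100a8-high cells of mouse 2, a count that allows a share of up to 30%.

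**Figure D1:**
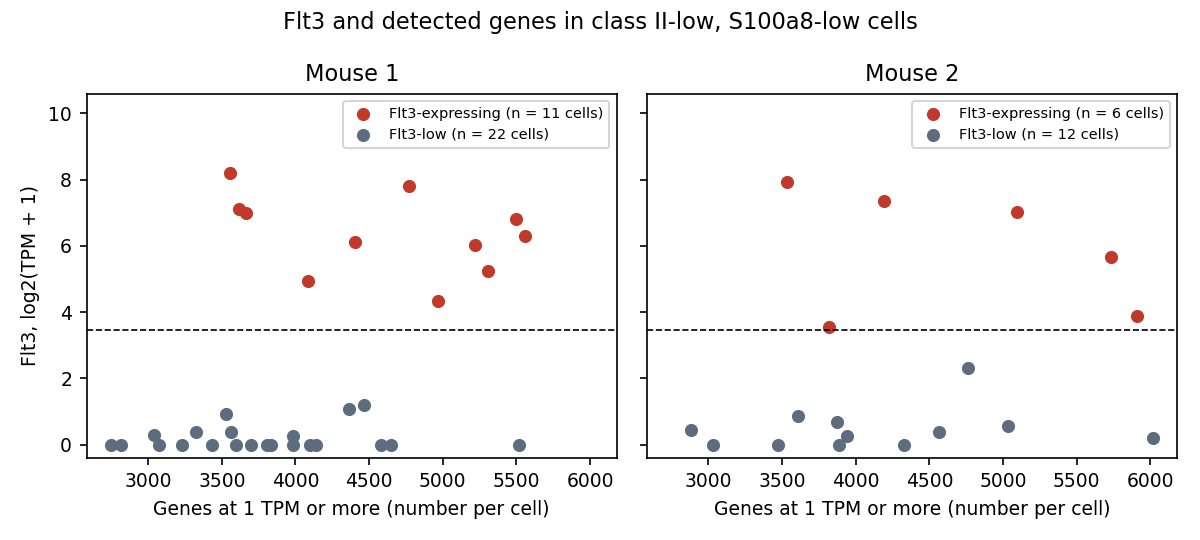
Flt3 level, as log2(TPM + 1), against the genes detected at 1 TPM or more in each of the 51 cells, by mouse, with the dashed line at 10 TPM. Flt3-expressing cells (red) lie above the line between 3531 and 5909 detected genes, and Flt3-low cells (grey) below it between 2746 and 6018.

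More genes were detected in Flt3-expressing cells. Counting genes at 1 TPM or more, the median per cell in mouse 1 was 4774 (range 3556 to 5559) in Flt3-expressing cells and 3753 (2746 to 5519) in Flt3-low cells. In mouse 2 the medians were 4645 (3531 to 5909) in Flt3-expressing cells and 3914 (2883 to 6018) in Flt3-low cells. The ranges overlap in both mice, and Flt3 itself followed the detected number only loosely, with Spearman correlations over cells of 0.33 (n = 33) in mouse 1 and 0.24 (n = 18) in mouse 2. Sequencing depth is unknown from TPM. Differences were also computed after a linear fit on the detected number within each mouse, written below as "with the detected number removed"; the part of depth or of cell size in a result was not tested. A gene was called when the mean log2(TPM + 1) over the cells of the 2 sides of a mouse differed by 1 or more. Of 97 genes named below, 37 were called higher in Flt3-expressing cells of both mice, of which 16 were still called so with the detected number removed, and 15 were called lower in both, of which all but Gata2 were. The removal turned the sign in mouse 1 for 16 of the 97 genes, which were Calr, Cd37, Csf3r, Ctsg, Idh1, Ifitm1, Ikzf2, Irf8, Lsp1, Ly6a, Mki67, Mpo, Myc, Sos1, Srgn and Top2a, and in mouse 2 for 5, which were Ccnd2, Dnmt3a, Mki67, Shc1 and Syk.

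The cells on both sides had transcripts of myeloid progenitors. At least 3 of the 18 genes of the granulocyte-monocyte progenitor list were at 100 TPM or more in 11 of 11 Flt3-expressing and 18 of 22 Flt3-low cells of mouse 1, and in 6 of 6 Flt3-expressing and 11 of 12 Flt3-low cells of mouse 2. Kit, the gene of the selecting antigen, was at 10 TPM or more in 10 of 11 Flt3-expressing and 14 of 22 Flt3-low cells of mouse 1, and in 3 of 6 and 7 of 12 such cells of mouse 2. It was thus not seen in every selected cell. Of the 17 dendritic cell markers other than Flt3, 7 reached 10 TPM in at least 1 Flt3-expressing cell (Cd74, Ctss, H2-Aa, H2-Ab1, Irf8, Naaa and Wdfy4). Irf8, a factor of monocyte and dendritic cell progenitors, did so in 5 of 11 Flt3-expressing and 6 of 22 Flt3-low cells of mouse 1, and in 5 of 6 Flt3-expressing and 7 of 12 Flt3-low cells of mouse 2. At 100 TPM the Irf8 counts were 3 of 11 and 3 of 22 in mouse 1, and 1 of 6 and 4 of 12 in mouse 2. Wdfy4, a gene of antigen cross-presentation, reached 10 TPM in 5 of 11 Flt3-expressing and 5 of 22 Flt3-low cells of mouse 1, and in 4 of 6 Flt3-expressing and 2 of 12 Flt3-low cells of mouse 2, with differences of 0.83 and 2.36. The others, among them Itgax, Clec9a, Batf3 and Zbtb46, stayed below 10 TPM in every Flt3-expressing cell. In Flt3-low cells of mouse 2 Clec9a reached 191 TPM, Batf3 158 TPM and Zbtb46 231 TPM. Summed over the 17 markers, TPM ranged from 25.7 to 712 in Flt3-expressing and 14.5 to 3591 in Flt3-low cells of mouse 1, and from 68.5 to 1142 in Flt3-expressing and 30.9 to 2363 in Flt3-low cells of mouse 2. Differences were taken for 8 of these markers, including H2-Aa, which the rule limited. Irf8 and Wdfy4 were above 0 in both mice and 4 markers below 0 in both, with medians of -0.24 and -0.51. The blast label rests on the sort and these progenitor genes, and no marker in the lists separates leukemic from residual normal cells.

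Of 9008 genes with a mean of at least 1 TPM in both mice, 2331 (25.9%) were higher and 468 (5.2%) lower in Flt3-expressing cells of mouse 1, and 2528 (28.1%) were higher and 1147 (12.7%) lower in those of mouse 2. In both mice 805 genes (8.94%) were higher and 84 (0.933%) lower. The sharing was modest. Of the genes higher in mouse 1, 34.5% were also higher in mouse 2, where 28.1% of all genes were, and of the genes lower in mouse 1, 17.9% were also lower in mouse 2, where 12.7% of all genes were. A further 291 genes were higher in mouse 1 and lower in mouse 2, and 127 the other way round. The median difference over all genes was 0.36 in mouse 1 and 0.28 in mouse 2, and with the detected number removed it was -0.01 and -0.04. Then 207 genes (2.3%) were higher and 191 (2.12%) lower in both mice, of which 180 and 66 were also called without the removal. With the removal, higher and lower genes were near equal in number, and more genes were lower than without it. The detected number is counted from the same TPM values, and the fit had no term for the side. The removal can thus also take out a difference between the sides, and the part of the detected number in the excess was not tested.

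**Figure D2:**
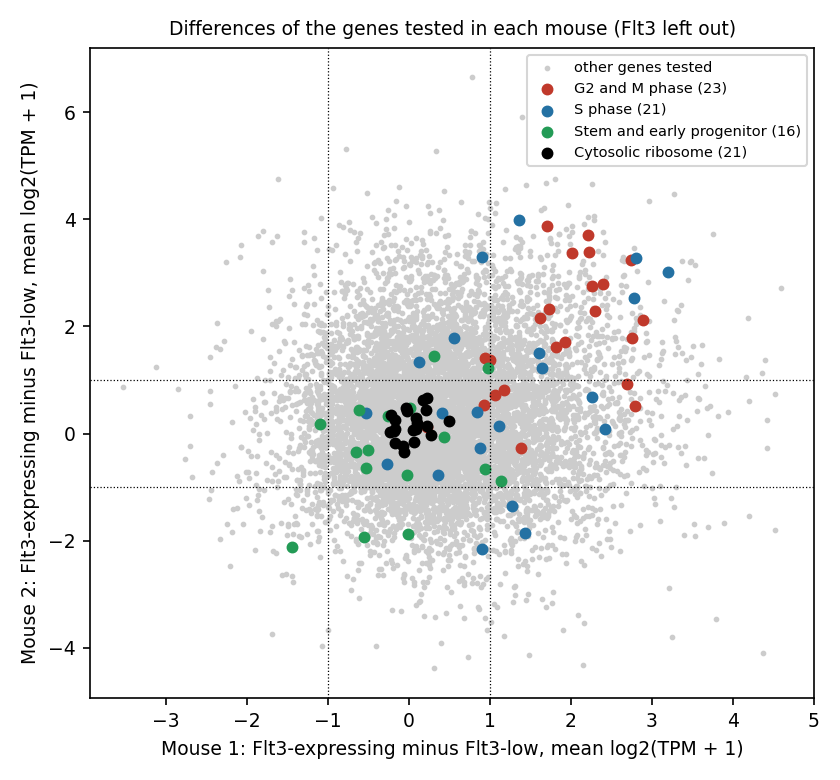
Difference of the mean log2(TPM + 1), Flt3-expressing minus Flt3-low cells, in mouse 1 (x axis) and mouse 2 (y axis) for each gene tested, with dotted lines at differences of 1. The G2 and M phase genes (red) lie mostly in the upper right, with median differences of 1.93 and 1.79, and the cytosolic ribosome genes (black) near 0, with medians of 0.05 and 0.14.

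Among the 478 genes higher in both mice that were also well detected, Ngfrap1 had the largest smaller difference of the 2 mice. It is also known as Bex3 and encodes a small adaptor that binds the p75 neurotrophin receptor. Its lowest, median and highest levels were 0, 131 and 565 TPM in Flt3-expressing and 0, 0 and 401 TPM in Flt3-low cells of mouse 1, and 35.4, 105 and 707 TPM in Flt3-expressing and 0, 0.40 and 213 TPM in Flt3-low cells of mouse 2. It was at 10 TPM or more in 10 of 11 Flt3-expressing and 9 of 22 Flt3-low cells of mouse 1, and in 6 of 6 Flt3-expressing and 5 of 12 Flt3-low cells of mouse 2. The sides overlap, since part of the Flt3-low cells were as high, but most Flt3-low cells had next to none. The differences were 3.75 in mouse 1 and 3.72 in mouse 2, and 2.22 and 2.37 with the detected number removed. Both stayed at 1 or more under the 13 other settings counted here. The H2-Aa and S100a8 limits, the RPKM values and the omission of single cells were not among these settings. Those that only changed the filter on low values could not alter the difference of a gene.

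The next genes in this order had roles in transcription, chromosome movement and mitochondria. Taf6, a subunit of the general transcription factor TFIID, differed by 3.27 in mouse 1 and 4.48 in mouse 2, Kif22, a kinesin that moves chromosome arms, by 3.49 and 3.23, and Tmem263 by 3.38 and 3.22. Taf6 reached 10 TPM in 7 of 11 Flt3-expressing and 3 of 22 Flt3-low cells of mouse 1, and in 5 of 6 Flt3-expressing and 3 of 12 Flt3-low cells of mouse 2. Tmem263 reached it in all 6 Flt3-expressing cells of mouse 2 and in 6 of its 12 Flt3-low cells. Ndufaf2, an assembly factor of respiratory complex I, and Tmem14c, a mitochondrial membrane protein needed for heme synthesis, differed by 3.53 and 2.82 in mouse 1 and by 3.15 and 3.04 in mouse 2. Arl2, a GTPase of tubulin folding, Bre, a subunit of a BRCA1 complex, and Nde1, a dynein regulator used in mitosis, differed by 2.96, 3.45 and 2.96 in mouse 1 and by 4.33, 2.87 and 2.83 in mouse 2. Eapp, a phosphoprotein that binds E2F factors, was above 10 TPM in all 11 Flt3-expressing cells of mouse 1 and in 6 of its 22 Flt3-low cells, a difference of 4.60, and differed by 2.72 in mouse 2. The Eapp difference of mouse 2 turned to -1.31 when the Flt3 threshold was set at 50 TPM, which leaves 3 Flt3-expressing cells there. The Ndufaf2 difference of mouse 2 was -0.12 at that threshold. H2-T9, a nonclassical class I gene, differed by 3.47 and 3.20, but it has close copies in the same cluster, so its reads may be shared with them. These 10 genes were all still called higher in both mice with the detected number removed, and the lowest difference was 1.40, that of Tmem14c in mouse 1.

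Of the 21 genes lower in both mice and well detected in Flt3-low cells, Lst1, a leukocyte membrane protein gene of the major histocompatibility complex, came first. Its lowest, median and highest levels were 0, 0 and 133 TPM in Flt3-expressing and 0, 74.2 and 844 TPM in Flt3-low cells of mouse 1, and 0, 17.04 and 94.9 TPM in Flt3-expressing and 0, 51.6 and 746 TPM in Flt3-low cells of mouse 2. Levels of 100 TPM or more occurred in 1 of 11 Flt3-expressing and 11 of 22 Flt3-low cells of mouse 1, and in 0 of 6 Flt3-expressing and 5 of 12 Flt3-low cells of mouse 2. Cells without Lst1 were present on both sides, and the upper part of the range was Flt3-low. The differences were -2.33 and -1.96, and -2.76 and -2.90 with the detected number removed.

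Other genes lower in both mice worked in ubiquitin transfer, translation, trafficking and chromatin. Uba1, the main ubiquitin-activating enzyme, differed by -2.17 in mouse 1 and -1.84 in mouse 2, and Mknk2, a kinase of the cap-binding factor eIF4E, by -2.04 and -1.69. Rbm38, an RNA-binding target of p53, was at 10 TPM or more in 5 of 11 Flt3-expressing and 15 of 22 Flt3-low cells of mouse 1, and in 0 of 6 Flt3-expressing and 6 of 12 Flt3-low cells of mouse 2. Clta, a clathrin light chain, reached 10 TPM in 5 of 11 Flt3-expressing and 16 of 22 Flt3-low cells of mouse 1, and in 1 of 6 Flt3-expressing and 9 of 12 Flt3-low cells of mouse 2. Its differences were -1.69 and -3.74. The chromatin remodelling subunits Arid2 and Actl6a differed by -1.31 and -1.38 in mouse 1 and by -1.39 and -1.15 in mouse 2. Swi5, a recombination factor, Prpf39, a splicing factor, Mtpn, a regulator of actin capping, and Gabarapl2, an autophagy protein, differed by -1.71, -1.57, -1.50 and -1.49 in mouse 1 and by -1.84, -1.68, -1.90 and -1.68 in mouse 2. Ndufb3, a complex I subunit, was at 10 TPM or more in 6 of 11 Flt3-expressing and 17 of 22 Flt3-low cells of mouse 1, and in 5 of 6 Flt3-expressing and 12 of 12 Flt3-low cells of mouse 2. Its differences were -1.63 and -2.24. These 11 genes were all still called lower in both mice with the detected number removed, with Arid2 nearest to the limit at -1.03 in mouse 1.

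Genes of cell division had the highest median differences of the lists with 5 or more genes. Of the 23 genes of the G2 and M phase list, all tested, 20 were higher in Flt3-expressing cells of mouse 1, 16 in those of mouse 2 and 15 in both, where 8.94% of all genes were, and none was lower in either. The list's median difference was 1.93 in mouse 1 and 1.79 in mouse 2, against 0.36 and 0.28 over all genes. With the detected number removed, its medians were 0.28 and 0.54, against -0.01 and -0.04 over all genes. Then 1 of its 23 genes was higher in both mice, against 2.3% of all genes. The number of detected genes was higher on the same side as the G2 and M phase genes, and its part in the result was not tested. The S phase list followed less closely, with 6 of 21 genes higher in both mice (Mcm3, Mcm7, Rrm1, Rrm2, Slbp and Tipin), against 8.94% of all genes, and medians of 1.11 and 0.41. With the detected number removed, 1 of the 21 was higher in both mice, Mcm7, against 2.3% of all genes. The medians were then 0.0084 and -0.12.

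Cdk1, the kinase that drives entry into mitosis, had lowest, median and highest levels of 0, 61.4 and 311 TPM in Flt3-expressing and 0, 0.23 and 165 TPM in Flt3-low cells of mouse 1, and 0, 186 and 352 TPM in Flt3-expressing and 0, 0.18 and 428 TPM in Flt3-low cells of mouse 2. It reached 10 TPM in 7 of 11 Flt3-expressing and 7 of 22 Flt3-low cells of mouse 1, and in 4 of 6 Flt3-expressing and 3 of 12 Flt3-low cells of mouse 2. In each of the 4 groups the cells fell into those with Cdk1 and those with almost none, and the sides differed in the shares of these cells. Cells of mouse 1 at 10 TPM or more had 49.25 to 311 TPM if Flt3-expressing and 15.45 to 165 TPM if Flt3-low. In mouse 2 these ranges were 127 to 352 and 44.45 to 428 TPM. Top2a, the topoisomerase that untangles chromosomes, was at 100 TPM or more in 7 of 11 Flt3-expressing and 5 of 22 Flt3-low cells of mouse 1, and in 4 of 6 Flt3-expressing and 4 of 12 Flt3-low cells of mouse 2. Its differences were 2.02 and 3.38, and that of mouse 1 was -0.60 with the detected number removed. Birc5, the survivin of the chromosomal passenger complex, differed by 2.40 and 2.80 and Ube2c, the ubiquitin-conjugating enzyme of the anaphase-promoting complex, by 2.89 and 2.12. Rrm2, the small subunit of ribonucleotide reductase, differed by 2.80 and 3.28, Cks1b, a binding partner of cyclin-dependent kinases, by 2.78 and 3.46, and Tipin, a replication fork protein, by 3.20 and 3.01. None of these 7 genes was called in both mice with the detected number removed. In mouse 1 the difference was then 0.38 for Cdk1, 0.10 for Birc5, 0.80 for Rrm2, 0.062 for Cks1b, 0.59 for Tipin and 1.68 for Ube2c, and in mouse 2 it was 1.55, 1.13, 1.35, 2.18, 1.95 and 0.63 for the same genes.

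Mki67, a proliferation antigen, showed less of this. It lay outside the naming rule and was picked after its values were seen. It reached 10 TPM in 6 of 11 Flt3-expressing and 8 of 22 Flt3-low cells of mouse 1, and in 3 of 6 Flt3-expressing and 6 of 12 Flt3-low cells of mouse 2, the same share. The differences were 0.93 and 0.54, and with the detected number removed -0.47 and -0.74. Mki67 was below 10 TPM in 5 Flt3-expressing and 14 Flt3-low cells of mouse 1, and in 3 and 6 such cells of mouse 2. Among these, 1 G2 and M phase gene and 5 S phase genes were higher in both mice, against 687 of all 7581 genes tested. Mki67 is itself a gene of cell division, so this choice of cells bears on these counts. Without that limit, the S phase gene Pcna, the sliding clamp of DNA polymerase, was not higher in both, with 0.88 in mouse 1 and -0.28 in mouse 2.

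Because these genes differed in the same direction, the upstream sequences of 4 of them and that of Flt3 are shown, the 250 bases before the RefSeq start on GRCm38.p6, on the gene's strand. In the Cdk1, Top2a and Ube2c sequences capitals mark matches, on either strand, of the CCAAT box and of the element TTTGAA, known as the cell cycle genes homology region.
Flt3, chr5:147400490-147400739, minus strand: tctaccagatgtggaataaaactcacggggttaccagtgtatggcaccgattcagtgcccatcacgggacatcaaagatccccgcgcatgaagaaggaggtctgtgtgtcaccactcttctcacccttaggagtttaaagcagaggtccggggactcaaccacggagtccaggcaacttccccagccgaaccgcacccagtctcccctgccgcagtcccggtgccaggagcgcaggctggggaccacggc
Cdk1, chr10:69352913-69353162, minus strand: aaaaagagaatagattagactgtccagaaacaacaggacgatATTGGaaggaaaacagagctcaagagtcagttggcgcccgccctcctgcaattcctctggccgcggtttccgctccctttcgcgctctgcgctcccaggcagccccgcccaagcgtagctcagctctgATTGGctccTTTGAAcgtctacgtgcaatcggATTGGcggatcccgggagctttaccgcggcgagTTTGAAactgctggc
Top2a, chr11:99024190-99024439, minus strand: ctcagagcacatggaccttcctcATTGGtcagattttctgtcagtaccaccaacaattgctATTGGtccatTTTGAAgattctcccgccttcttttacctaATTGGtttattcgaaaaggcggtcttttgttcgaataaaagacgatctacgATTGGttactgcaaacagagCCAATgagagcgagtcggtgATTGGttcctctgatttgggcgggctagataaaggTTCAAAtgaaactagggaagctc
Ube2c, chr2:164769679-164769928, plus strand: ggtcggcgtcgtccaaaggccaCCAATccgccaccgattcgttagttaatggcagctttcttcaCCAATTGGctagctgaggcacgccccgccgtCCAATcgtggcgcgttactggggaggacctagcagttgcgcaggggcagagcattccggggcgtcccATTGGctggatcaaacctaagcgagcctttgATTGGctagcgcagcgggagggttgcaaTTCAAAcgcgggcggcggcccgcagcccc
Birc5, chr11:117848987-117849236, plus strand: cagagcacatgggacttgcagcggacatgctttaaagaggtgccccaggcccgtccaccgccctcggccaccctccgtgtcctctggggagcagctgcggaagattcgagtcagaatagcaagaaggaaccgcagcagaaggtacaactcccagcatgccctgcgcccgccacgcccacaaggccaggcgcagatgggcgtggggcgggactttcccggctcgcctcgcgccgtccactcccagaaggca
The Cdk1 window held 3 CCAAT boxes and 2 copies of TTTGAA, that of Top2a 6 and 2, that of Ube2c 6 and 1, and those of Flt3 and Birc5 held neither. Overlapping matches were counted separately. A promoter was in the table for 19 of the 23 G2 and M phase genes, of which 16 (84.2%) held a CCAAT box and 7 (36.8%) TTTGAA. Among the 6875 tested genes with a promoter in the table the shares were 37.3% and 10.9%, and among the 627 matched genes higher in both mice they were 37.5% and 12.9%. The E2F sites TTTCCCGC and TTTGGCGC, on either strand, were in 0 of the 19 and in 2.98% of the 6875. Both shares were higher in the G2 and M phase list than among all tested genes, while those of the genes higher in both mice were near them. These are matches of letters and say nothing of whether a factor binds.

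**Figure D3:**
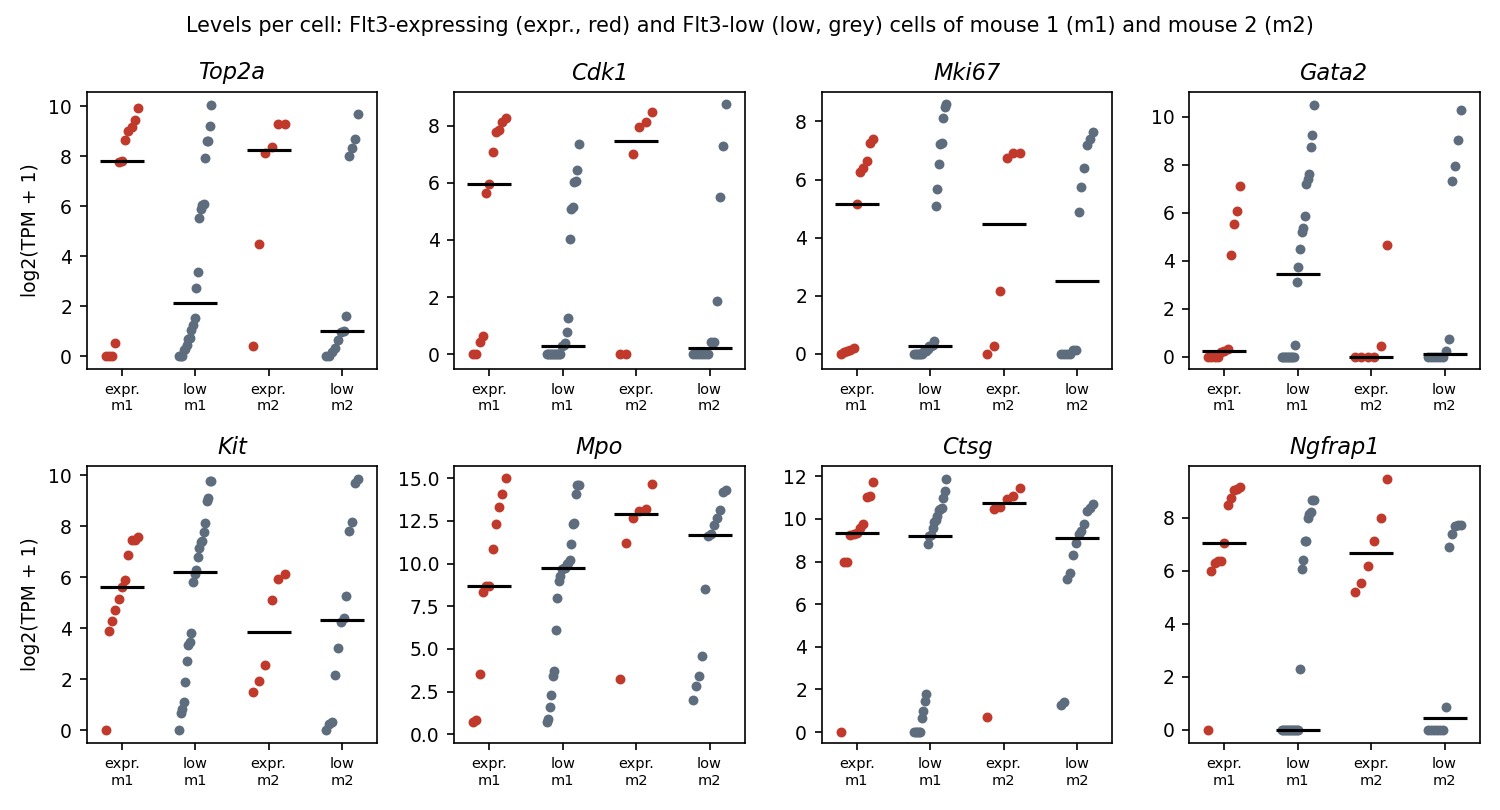
Levels of 8 genes as log2(TPM + 1) in each cell of the 4 groups, Flt3-expressing (red) left of Flt3-low (grey) for mouse 1 and then mouse 2, with a bar at each median. Cdk1 splits each group into cells with the transcript and cells with almost none, while Top2a is graded in Flt3-low cells of mouse 1. The highest Gata2 and Kit levels are in Flt3-low cells, up to 1455 and 932 TPM.

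Gata2, the zinc finger factor of stem cells and of mast, basophil and megakaryocyte progenitors, was the member lower in both mice in the stem and early progenitor list, the mast cell and basophil list and the transcription factor list. Its lowest, median and highest levels were 0, 0.17 and 137 TPM in Flt3-expressing and 0, 10.02 and 1455 TPM in Flt3-low cells of mouse 1, and 0, 0 and 23.9 TPM in Flt3-expressing and 0, 0.08 and 1233 TPM in Flt3-low cells of mouse 2. It was at 100 TPM or more in 1 of 11 Flt3-expressing and 6 of 22 Flt3-low cells of mouse 1, and in 0 of 6 Flt3-expressing and 4 of 12 Flt3-low cells of mouse 2. The high values were thus almost confined to a minority of Flt3-low cells, while most cells of mouse 2 on both sides had next to none. The differences were -1.44 and -2.11, or -0.52 and -1.06 with the detected number removed. The difference of mouse 1 was 0.19 when the 25% of its cells with the fewest detected genes were left out.

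Other genes of these lineages showed the same uneven spread without being called in both mice. Kit had lowest, median and highest levels of 0, 48.5 and 190.5 TPM in Flt3-expressing and 0, 73.5 and 875 TPM in Flt3-low cells of mouse 1, and 1.83, 19.3 and 68.5 TPM in Flt3-expressing and 0, 18.9 and 932 TPM in Flt3-low cells of mouse 2. The mean levels were 78.1 and 28.5 TPM in Flt3-expressing cells of mouse 1 and mouse 2, against 188 and 196 TPM in Flt3-low cells. On the log2 scale the differences of -0.02 and -0.77 were not called. The level of 100 TPM was reached in 4 of 11 and 0 of 6 Flt3-expressing cells, against 10 of 22 and 4 of 12 Flt3-low cells. Eng, a coreceptor of the TGF-beta family, peaked at 16.7 and 0.36 TPM in Flt3-expressing cells and at 302 and 147 TPM in Flt3-low cells of mouse 1 and mouse 2. Pf4, the platelet chemokine gene, peaked at 4.09 and 0 TPM in Flt3-expressing cells and at 22959.5 and 88.7 TPM in Flt3-low cells, being at 10 TPM or more in only 2 Flt3-low cells of each mouse. Its differences were -0.88 and -1.32. Car2, a carbonic anhydrase abundant in erythroid progenitors, differed by -2.76 in mouse 1, where 4 of 11 Flt3-expressing cells and 13 of 22 Flt3-low cells had 100 TPM or more, and by -0.48 in mouse 2. Its differences were -0.32 and -0.57 with the detected number removed, so the call of mouse 1 was lost.

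Mast cell, megakaryocyte and erythroid genes did not sort cleanly. Cpa3, the mast cell carboxypeptidase, was at 100 TPM or more in 3 of 11 Flt3-expressing and 3 of 22 Flt3-low cells of mouse 1 and in 0 of 6 Flt3-expressing and 3 of 12 Flt3-low cells of mouse 2, so it went opposite ways, with differences of 0.68 and -2.83. At least 3 of the 15 mast cell and basophil genes were at 100 TPM or more in 1 of 11 Flt3-expressing and 6 of 22 Flt3-low cells of mouse 1, and in 0 of 6 Flt3-expressing and 4 of 12 Flt3-low cells of mouse 2. The list medians were -0.27 and -0.92 for mast cell and basophil genes and -0.32 and -0.19 for megakaryocyte genes, both below those over all genes. The erythroid list gave 0.56 and -0.08. The beta-globin Hbb-b2 differed by 2.01 in mouse 1 and -0.08 in mouse 2, and its reads can be shared with near-identical copies. Ikzf2, the factor Helios, had differences of -0.82 and -0.97, and of 0.21 and -0.71 with the detected number removed. Ly6a, the Sca-1 antigen gene, and Mecom, a transcription factor gene of stem cells, pointed the other way, at 0.98 and 0.31 in mouse 1 and 1.22 and 1.45 in mouse 2, although that of Ly6a in mouse 1 was -0.055 with the detected number removed, while Ifitm1 and Ifitm3, the most abundant stem list genes, gave 0.02 and -0.01 in mouse 1 and 0.47 and -1.88 in mouse 2. The stem and early progenitor list had 0 of 16 genes higher and 1 lower in both mice, against 8.94% and 0.933% of all genes, with medians of -0.14 and -0.33.

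Granulocyte-monocyte progenitor genes were abundant on both sides, and 2 of 17 tested, Ctsg and Csf3r, were higher in both mice, a share near the 8.94% of all genes, and 0 were with the detected number removed. Ctsg, the granule protease cathepsin G, had lowest, median and highest levels of 0, 654 and 3369.6 TPM in Flt3-expressing and 0, 592 and 3755 TPM in Flt3-low cells of mouse 1, and 0.65, 1721 and 2791 TPM in Flt3-expressing and 1.39, 547 and 1652 TPM in Flt3-low cells of mouse 2. In mouse 1 it was at 100 TPM or more in 10 of 11 Flt3-expressing and 13 of 22 Flt3-low cells, and in mouse 2 in 5 of 6 Flt3-expressing and 10 of 12 Flt3-low cells, a like share. Its differences were 2.58 and 1.32, but -0.23 in mouse 1 with the detected number removed and -0.68 in mouse 2 with the Flt3 threshold at 50 TPM. Csf3r, the G-CSF receptor, differed by 1.15 and 1.64, and by -0.24 and 1.51 with the detected number removed.

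Mpo, myeloperoxidase, spanned the whole range on both sides. Its lowest, median and highest levels were 0.63, 411 and 32576 TPM in Flt3-expressing and 0.64, 853 and 24827 TPM in Flt3-low cells of mouse 1, and 8.32, 7665 and 26342 TPM in Flt3-expressing and 3.09, 3276 and 20406 TPM in Flt3-low cells of mouse 2. The differences were 0.41 and 2.07, and with the detected number removed -2.15 and 1.29, so the direction in mouse 1 depended on that number. Elane, neutrophil elastase, gave -0.07 and -0.67. Plac8 and Srgn, abundant genes of early myeloid cells, were present in nearly every cell and gave 0.81 and -0.06 in mouse 1 and -0.87 and -0.86 in mouse 2. The list median was 0.64 and 0.93, and -0.66 and 0.62 with the detected number removed. Cebpe, a factor of later granulocytes, was at 10 TPM or more in 0 Flt3-expressing cells of either mouse and in 1 Flt3-low cell of each. The late neutrophil list went opposite ways, with medians of -0.70 and 1.55 over 8 genes, and S100a8, a member of it that the rule had limited, differed by -0.65 and 2.19.

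The lymphoid-primed progenitor list without Flt3 had 14 tested genes, and its medians were 0.32 and 0.45, against 0.36 and 0.28 over all genes. Cd27, a TNF receptor family member, gave 0.67 and -0.35, Irf8 0.82 and 0.52, and Lsp1, a leukocyte actin-binding protein, 0.27 and 0.59.

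Genes of the Flt3 signalling route were not called together with Flt3. Of 21 tested genes of the list of its ligand, adaptors and regulators, 0 were higher and 0 lower in both mice, against 8.94% and 0.933% of all genes, and the medians were 0.17 and 0.36. Among adaptors, Grb2 differed by -0.23 and -1.79, Shc1 by -0.45 and 0.91 and Sos1, the Ras exchange factor that Grb2 carries, by 0.48 and 0.92. Of the phosphoinositide 3-kinase subunits, the catalytic Pik3cd gave 0.85 and 2.57 and the regulatory Pik3r1 1.08 and -0.01. The negative regulators Inpp5d (the phosphatase SHIP1), Sla and Socs6 gave -1.39, 0.28 and -0.35 in mouse 1 and 1.25, -1.002 and -1.10 in mouse 2. The kinases Lyn and Syk gave -0.84 and -0.48 in mouse 1 and 0.08 and 0.01 in mouse 2. Calr, the chaperone calreticulin, was at 100 TPM or more in all 17 Flt3-expressing cells and in 20 of 22 and 10 of 12 Flt3-low cells, with differences of 0.80 and 1.36.

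Targets of Stat5 and of the MAP kinase route were called in both mice in 0 of 16 cases, against 8.94% of all genes higher and 0.933% lower. With the detected number removed, 1 of the 16 was higher in both, against 2.3% of all genes. Pim2, a Stat5-induced survival kinase, came nearest, with 1.81 and 0.96, and 1.85 and 1.08 with the detected number removed. It was at 10 TPM or more in 8 of 11 Flt3-expressing and 10 of 22 Flt3-low cells of mouse 1, and in 2 of 6 Flt3-expressing and 3 of 12 Flt3-low cells of mouse 2. Socs2, a feedback inhibitor induced by Stat5, had lowest, median and highest levels of 3.39, 351 and 1022 TPM in Flt3-expressing and 0.53, 322 and 2253 TPM in Flt3-low cells of mouse 1, and 0, 163 and 425 TPM in Flt3-expressing and 50.3, 351 and 1835 TPM in Flt3-low cells of mouse 2. Nearly every cell of both sides had it, and the differences of 0.81 and -2.13 were of opposite sign. Myc gave 0.51 and -1.17 and Ccnd2, a D-type cyclin, 1.76 and 0.44. The list medians of 0.99 in mouse 1 and 0.11 in mouse 2 lay on different sides of the medians over all genes.

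In the DNA methylation list 1 of 10 genes was higher in both mice and none lower, a share near the 8.94% of all genes, and 0 were higher with the detected number removed. Dnmt1, the maintenance methyltransferase that is made in dividing cells, had lowest, median and highest levels of 0, 62.8 and 132 TPM in Flt3-expressing and 0, 19.03 and 384 TPM in Flt3-low cells of mouse 1, and 34.8, 90.04 and 173 TPM in Flt3-expressing and 0, 39.98 and 117 TPM in Flt3-low cells of mouse 2. It was at 10 TPM or more in 9 of 11 Flt3-expressing and 12 of 22 Flt3-low cells of mouse 1, and in 6 of 6 Flt3-expressing and 8 of 12 Flt3-low cells of mouse 2. The differences were 1.15 and 2.38, and 0.33 and 1.89 with the detected number removed. Dnmt3a, the gene with the floxed and null alleles in these mice, was at 10 TPM or more in 2 of 11 Flt3-expressing and 10 of 22 Flt3-low cells of mouse 1, and in 1 of 6 Flt3-expressing and 2 of 12 Flt3-low cells of mouse 2, and a gene-level value does not check the deletion. Its differences of -0.82 and 0.67 were of opposite sign. Dnmt3b, the other de novo methyltransferase, gave 0.74 and 1.61, Mbd2, a reader of methylated DNA, -1.10 and -0.21, and the isocitrate dehydrogenases Idh1 and Idh2 0.10 and -0.74 in mouse 1 and 0.69 and 1.96 in mouse 2.

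Adhesion genes were mixed, with 4 of 21 higher and 1 lower in both mice, against 8.94% and 0.933% of all genes. With the detected number removed, 0 were higher and 1 lower, against 2.3% and 2.12% of all genes. Selplg, the P-selectin ligand, was at 100 TPM or more in 8 of 11 Flt3-expressing and 10 of 22 Flt3-low cells of mouse 1, and in 5 of 6 Flt3-expressing and 6 of 12 Flt3-low cells of mouse 2, with differences of 1.75 and 1.92, or 0.52 and 0.92 with the detected number removed. Cd37, a leukocyte tetraspanin, differed by 1.46 and 2.16, and Itgb1, the integrin beta 1 chain, by 2.41 and 1.30. Its alpha 4 partner Itga4 was the lower gene, at -1.22 and -1.43, and was still called with the detected number removed, at -1.28 and -1.59, whereas Itgb1 then gave 1.88 and 0.025. The Cd37 difference of mouse 1 was then -0.42. Cd47, a signal that restrains phagocytes, gave 0.31 and 1.39, and Cd48, a SLAM family receptor, 1.92 and -0.86.

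Of the remaining lists, oxidative phosphorylation had 4 of 18 genes higher and 0 lower in both mice, against 8.94% and 0.933% of all genes, among them Ndufb5, Uqcrc1 and Cox5a, with medians of 0.78 and 0.69. With the detected number removed, 0 were higher and 2 lower, against 2.3% and 2.12% of all genes. The survival list had 3 of 12 genes higher in both, against 8.94% of all genes, and 0 with the detected number removed. Among them were Bcl2, which blocks mitochondrial cell death, at 1.07 and 2.72 (0.65 and 2.41 with the detected number removed), and Bid, which promotes it, at 1.44 and 1.15 (0.78 and 0.43). These members act in opposite directions. The 21 cytosolic ribosome genes, which are seen in nearly every cell, had 0 genes called in either mouse and medians of 0.05 and 0.14. Receptor genes had 1 of 24 higher in both, which was Csf3r, against 8.94% of all genes. Transcription factors had 1 of 35 lower in both, which was Gata2, against 0.933% of all genes. Neither gene was called in both mice with the detected number removed.

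**Figure D4:**
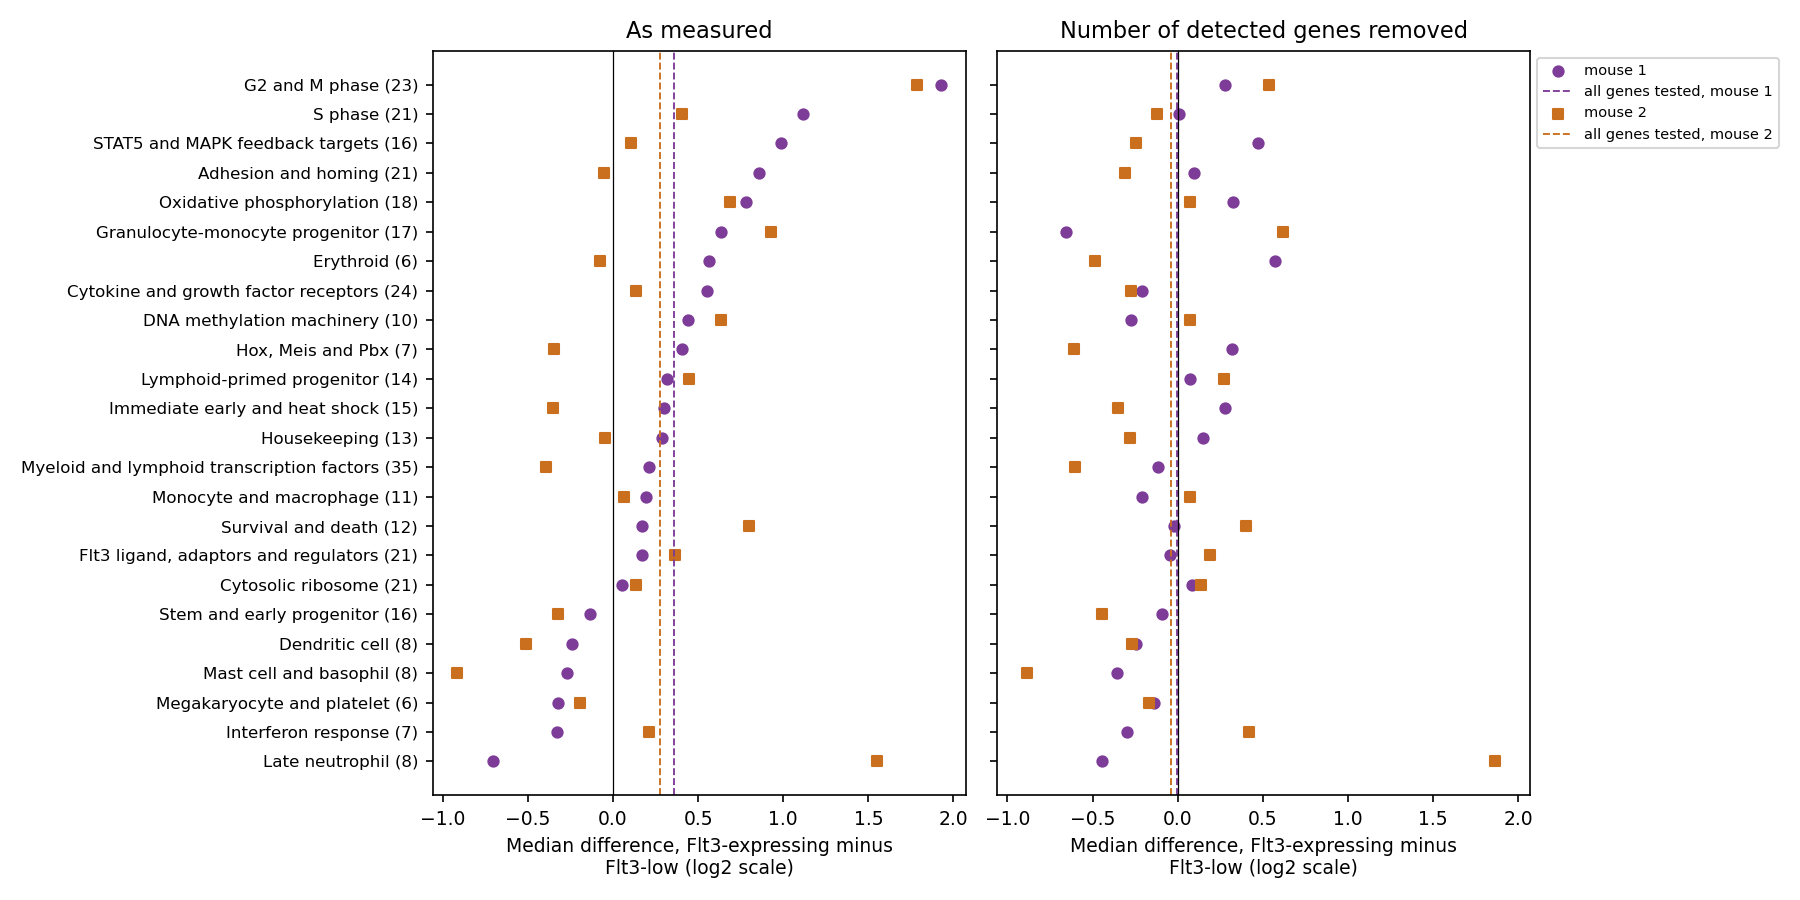
Median difference, Flt3-expressing minus Flt3-low cells, of each gene list with 5 or more tested genes (number in brackets) in mouse 1 and mouse 2, as measured (left) and with the detected number removed (right), with dashed lines at the medians of all genes. As measured, the G2 and M phase list has the highest median of the lists drawn, 1.93 in mouse 1 and 1.79 in mouse 2, and with the detected number removed its medians are 0.28 and 0.54.

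Within the 51 cells Flt3 was ranked against 2350 genes by Spearman correlation over the cells of each mouse (n = 33 and n = 18). These cells share the animal and the detected number. The 2350 genes were those well detected, at 10 TPM or more, among the Flt3-expressing cells of each mouse. No such level was asked of the Flt3-low cells. The highest lower value was that of Ptp4a3, a phosphatase of the PRL family, with 0.46 in mouse 1 and 0.50 in mouse 2, followed by Acap1, a GTPase activator of endosome recycling, with 0.58 and 0.45. Med28, a Mediator subunit, Mrps14, a mitochondrial ribosome protein, and Ino80e, a subunit of the INO80 remodeller, had 0.53, 0.40 and 0.40 in mouse 1 and 0.41, 0.42 and 0.58 in mouse 2. The detected number had 0.33 and 0.24. Ptp4a3 was at 10 TPM or more in 7 of 11 Flt3-expressing and 5 of 22 Flt3-low cells of mouse 1, and in 3 of 6 Flt3-expressing and 0 of 12 Flt3-low cells of mouse 2. Acap1 reached 10 TPM in 9 of 11 Flt3-expressing and 11 of 22 Flt3-low cells of mouse 1, and in 5 of 6 Flt3-expressing and 5 of 12 Flt3-low cells of mouse 2. The differences were 2.13 and 2.16 for Ptp4a3, 2.42 and 3.57 for Acap1, 2.45 and 2.02 for Med28, 2.64 and 3.30 for Ino80e, and 2.00 and 0.66 for Mrps14. With the detected number removed, Ptp4a3, Acap1, Med28 and Ino80e were still called higher in both mice, and Mrps14 gave 0.30 and 0.43. These genes were picked by their correlation with Flt3, and Flt3 also sets the sides. Their higher counts and differences in Flt3-expressing cells follow largely from that choice, so they only describe the genes picked.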

How the data were processed

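Single-cell RNA-seq of 96 spleen cells, 48 from each of 2 mice, was analysed from the authors' deposited tables. TPM values of 23955 genes, which the authors' file names as RSEM output, gave the main results. RPKM values deposited by the authors for 9310 genes, 8235 of them matched by symbol, served as an alternative. TopHat2, RSEM and Bowtie2 and the builds mm10 and mm9 are named in the submitters' processing notes; versions and which build belongs to which table are not given in the sources used here. Every column matched a sample, with 0 left over. Neither table gives sequencing depth, so genes detected at 1 TPM or more, 1604 to 6018 per cell, were counted in its place.

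The members, lists and rules were chosen with earlier results of these data known. Differences are of the mean log2(TPM + 1) over cells, Flt3-expressing minus Flt3-low, within each mouse; this scale understates the change of low genes. Genes with a mean of at least 1 TPM in the 51 cells of each mouse entered. Flt3 was left out of the medians of its lists. With 1 animal per mouse value there is no test, and the cells of 1 animal are not replicates. The fit on the detected number was linear, within each mouse, with no term for the side. Lists held 28 sets of genes. Genes were named by a rule: Flt3, Kit, Dnmt3a and both limiting genes; up to 15 genes per direction called in both mice and at 10 TPM or more in at least 50% of the cells of the higher side of each mouse, ranked by the smaller difference; in each list the members with the highest level and with the largest difference; the Flt3 route; and the 5 genes most like Flt3. This gave 156 genes, of which the text gives the part that its lists need; Mki67 and further members named in counts of 1 list were added after their values were seen. Some genes that the rule named are not reported here. Alternatives changed the Flt3, H2-Aa and S100a8 limits, the pseudocount, the filter, the call, the scaling, the table and the cells. No doublet caller was run. The computation was tested on simulated data. Intervals of shares are exact 95% Clopper-Pearson intervals and cover cell counting alone, and a count of 0 was given the limit of 3 counts. Gene positions are from GENCODE on GRCm38 and promoters from RefSeq on GRCm38.p6, the first entry per gene. Python 3.11.15, pandas 2.3.3, numpy 2.4.6, scipy 1.17.1 and matplotlib 3.10.9 were used.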

Additional observations from a re-analysis of the deposited data

Results flagged for a closer look

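In the 6 Flt3-expressing cells of mouse 2, 11 of 88 genes examined had a cell far from the other 5. The limit is set to flag about 1 in 20 groups by chance. That rate need not hold here, because the 88 genes share the same 6 cells and many values lie at or near 0. No explanation was tested. The gap between the outlying cell and its nearest neighbour, as a share of the whole range of log2(TPM + 1), exceeded the limit for 6 values in each. For a low outlying cell it was 0.831 for S100a8, 0.696 for Mpo, 0.908 for Ctsg, 0.808 for Socs2, 0.683 for Myc, 0.714 for Selplg and 0.913 for Cd48. For a high outlying cell it was 0.902 for Gata2, 1 for Cebpe, 1 for Cpa3 and 0.668 for Mbd2. The outlying cell for Gata2 had 4.64 against 0.45 in the next on the log2 scale, while those for Cebpe and Cpa3 had 0.82 and 0.70 against 0, levels below 1 TPM. Among the low ones, the outlying cell had 3.22 against 11.2 in the next for Mpo, 0.72 against 10.5 for Ctsg and 0 against 9.75 for Cd48.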

How the results depend on the processing

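The counts of genes called higher in Flt3-expressing cells of mouse 1, lower in mouse 1, higher in mouse 2, lower in mouse 2, higher in both and lower in both were 2331, 468, 2528, 1147, 805 and 84, with 15 G2 and M phase and 6 S phase genes higher in both. With a pseudocount of 10 TPM they were 749, 99, 1118, 367, 189 and 9, with 3 S phase genes. With calls at a difference of 2 they were 580, 38, 900, 220, 110 and 1, with 8 and 3 cycle genes. In the RPKM table, where most values lie at a floor of their gene, they were 233, 41, 293, 107, 81 and 8, with 0 and 2 cycle genes. These RPKM counts are over all 6777 shared genes, against 9008 in the main result. Settings that changed the filter or the cells tested between 5966 and 23955 genes. Removing the detected number gave 957 higher and 862 lower in mouse 1 and 207 and 191 in both, with 1 and 1 cycle genes. Centring on the median of all genes gave 1507 and 1027 in mouse 1 and 464 and 231 in both. With the Flt3 threshold at 50 TPM, 3 cells of mouse 2 were Flt3-expressing, 2312 genes were lower in mouse 2 and 217 in both, with 9 G2 and M phase genes; without cells between 1 and 50 TPM, 2085 and 198 were lower. Leaving out the 25% of cells with the fewest detected genes gave 822 lower in mouse 1 and 170 in both, with 8 G2 and M phase genes. Of the alternatives chosen after seeing the data, 3500 or more detected genes gave 794 lower in mouse 1 and 164 in both, Mki67 below 10 TPM gave 1394, 2341 and 475 lower in mouse 1, mouse 2 and both and 1 G2 and M phase gene, and leaving out cells with Gata2 at 100 TPM or more gave 150 lower in both. The other settings kept these counts within 1.5 times. Leaving out 1 cell at a time gave 2240 to 2543, 456 to 556, 2369 to 2893, 1076 to 1495, 721 to 919 and 77 to 111, with 12 to 19 and 4 to 7 cycle genes. Sides were compared within each mouse throughout. No paired analysis was possible because cells of the 2 sides share no number within a mouse and no test was made. Differences of called size that changed sign, with the cause not tested, were those of Socs6 in mouse 2 with the threshold at 1 TPM (0.052); in mouse 2 at 50 TPM, Ndufaf2 (-0.12), Eapp (-1.31), Ctsg (-0.68), Inpp5d (-0.38) and Idh2 (-0.17); without cells between 1 and 50 TPM, Eapp (-0.035) and Ctsg (-0.19) in mouse 2; with the detected number removed, Top2a (-0.60), Ctsg (-0.23), Csf3r (-0.24) and Cd37 (-0.42) in mouse 1; without the lowest 25%, Gata2 (0.19) and Cd37 (-0.58) in mouse 1 and Ctsg (-0.28) in mouse 2; in the RPKM table, Sssca1 (0.11 and 0.16); with 3500 genes or more, Cd37 in mouse 1 (-0.22); with Mki67 below 10 TPM, Hbb-b2 (-0.15) and Cd37 (-0.52) in mouse 1 and Mecom (-1.11), Csf3r (-0.41) and Dnmt3b (-1.39) in mouse 2; without Gata2-high cells, Gata2 itself (0.73) and Ctsg (-0.022) in mouse 2; and without 1 cell, Myc in mouse 2 (from -1.86 to 0.097). For single genes, unlike the counts above, RPKM was compared only where a gene was above its floor in at least 50% of its cells at 10 TPM. Flt3 was not such a gene. The sides hold 6 to 22 cells, and each mouse is 1 animal.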
